A study of Mus musculus with 44 samples.

Results

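The comparison described here sets 10 Dppa2/4-/- two-cell embryos against 14 Dppa2/4+/+ (WT) two-cell embryos, out of 44 embryos of which each was sequenced as a library of its own. Embryos were chosen by the mating and genotype in their labels. Dppa2/4-/- embryos came from C57Bl/6 females homozygous for the floxed allele (cKO), in which Cre driven by the Zp3 promoter removes the floxed interval in growing oocytes, mated with males heterozygous for the deletion (HET). The floxed interval runs from exon 2 of Dppa4 to exon 7 of Dppa2, so that 1 recombination event removes most of both genes. WT embryos came from control females mated with WT males. All were collected from natural matings at embryonic day 1.5. The labels number the matings, and the embryos of each numbered mating were taken here as 1 litter, which the labels do not state. On this basis the Dppa2/4-/- embryos fell into 2 litters, with embryos a, b and c in litter 1 and embryos d to j in litter 2. The WT embryos fell into another 2 litters, with embryos a to j in litter 1 and k to n in litter 2. A further 5 Dppa2/4+/- embryos from the same 2 litters as the Dppa2/4-/- embryos served as littermate controls, and 15 Dppa2/4+/- embryos from cKO females mated with WT males enter where Dppa2 and Dppa4 levels are given, in the floor set on low values and in an alternative fit of all 44 embryos. The authors told Dppa2/4-/- from Dppa2/4+/- embryos by the presence of Dppa2 and Dppa4 transcripts, so the absence of these transcripts in the Dppa2/4-/- embryos is part of how the group was made. In the comparison with WT embryos, absence of the maternal protein, absence of the zygotic gene, the genotype and Cre of the mother, and the litter all change together and cannot be told apart. The labels give the mating of each embryo and nothing more about its mother, so that shared parents within a litter are likewise assumed.

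Dppa2 and Dppa4 encode small chromatin proteins with a DNA-binding SAP domain, and the genes lie in tandem on chromosome 16. In mouse embryonic stem cells they are known as activators of Dux and of the transcripts that mark the two-cell-like (2C-like) state, and as factors that keep CpG-rich promoters of developmental and germline genes free of DNA methylation. In the mouse, the main wave of zygotic genome activation falls at the two-cell stage, when transcripts stored in the oocyte are being degraded, so both pools of RNA are present in these embryos.

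Sequences are shown for the deleted interval and for 3 promoters. Exon 2 of Dppa4 is the first exon inside the floxed interval, and its 118 coding bases lie at chr16:48287878-48287995 on the forward strand of GRCm38. The promoters (RefSeq, GRCm38.p6, CG dinucleotides in capitals) belong to Prr23a1, the gene with the lowest adjusted p after Dppa2 and Dppa4, to Cdkn1a, a called gene with few CG dinucleotides, and to Lemd3, the lower gene with the lowest adjusted p after Dppa2 and Dppa4. Each ends at the base before the gene begins in the deposited table. They cover chr9:98842337-98842502 on the forward strand for Prr23a1, chr17:29090729-29090975 on the forward strand for Cdkn1a and chr10:120979333-120979580 on the reverse strand for Lemd3.
Dppa4 exon 2: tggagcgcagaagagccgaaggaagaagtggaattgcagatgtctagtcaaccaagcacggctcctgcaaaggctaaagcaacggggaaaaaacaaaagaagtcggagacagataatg
Prr23a1 promoter: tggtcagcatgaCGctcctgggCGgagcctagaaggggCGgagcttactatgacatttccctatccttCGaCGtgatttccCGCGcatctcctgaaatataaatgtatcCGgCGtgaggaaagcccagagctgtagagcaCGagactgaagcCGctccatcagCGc
Cdkn1a promoter: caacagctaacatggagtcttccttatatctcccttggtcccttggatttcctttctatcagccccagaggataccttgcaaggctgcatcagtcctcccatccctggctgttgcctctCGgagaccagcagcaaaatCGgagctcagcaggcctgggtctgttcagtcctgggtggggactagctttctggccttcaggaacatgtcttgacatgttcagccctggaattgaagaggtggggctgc
Lemd3 promoter: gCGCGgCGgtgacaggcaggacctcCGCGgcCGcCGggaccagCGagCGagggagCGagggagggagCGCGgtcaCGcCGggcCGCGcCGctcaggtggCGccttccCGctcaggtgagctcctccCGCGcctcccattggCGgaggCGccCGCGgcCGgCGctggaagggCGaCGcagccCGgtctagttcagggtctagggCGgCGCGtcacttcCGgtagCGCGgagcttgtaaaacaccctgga
The stretch shown for Prr23a1 holds 12 CG dinucleotides in 166 bases, that for Cdkn1a 2 in 247 and that for Lemd3 36 in 248. The Prr23a1 gene begins before the RefSeq start in the deposited table, so this stretch is shorter than the 250 bases before the RefSeq start, which hold 23 CG and form the window in which promoters of all genes were counted.

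Values are log2 RPM, that is, reads of a gene scaled to the total of the embryo. Total reads ranged from 418558 to 3048642 in Dppa2/4-/- embryos (median 803369) and from 637704 to 3163026 in WT embryos (median 1770010). Because a gene without reads holds a value that depends on depth, values under 1.86 (3.63 RPM, the highest such value in any of the 44 embryos) were raised to that floor, and the 9629 genes above the floor in at least 10 of the 24 embryos were tested with limma. Above the floor, 8876 to 10662 genes were detected in Dppa2/4-/- embryos and 7133 to 9889 in WT embryos, and WT embryos j (7133) and k (7332) stood apart with the fewest. Pearson correlations over the tested genes had a median of 0.778 between Dppa2/4-/- embryos (45 pairs), 0.816 between WT embryos (91 pairs) and 0.780 across the groups (140 pairs). Values scaled to the total of each embryo do not show how much RNA the embryo held. Two-cell markers summed to 696 to 1438 RPM in Dppa2/4-/- embryos and 547 to 1431 RPM in WT embryos. Sperm markers were at 0 in all Dppa2/4-/- embryos for 7 of 7 genes.

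**Figure D1:**
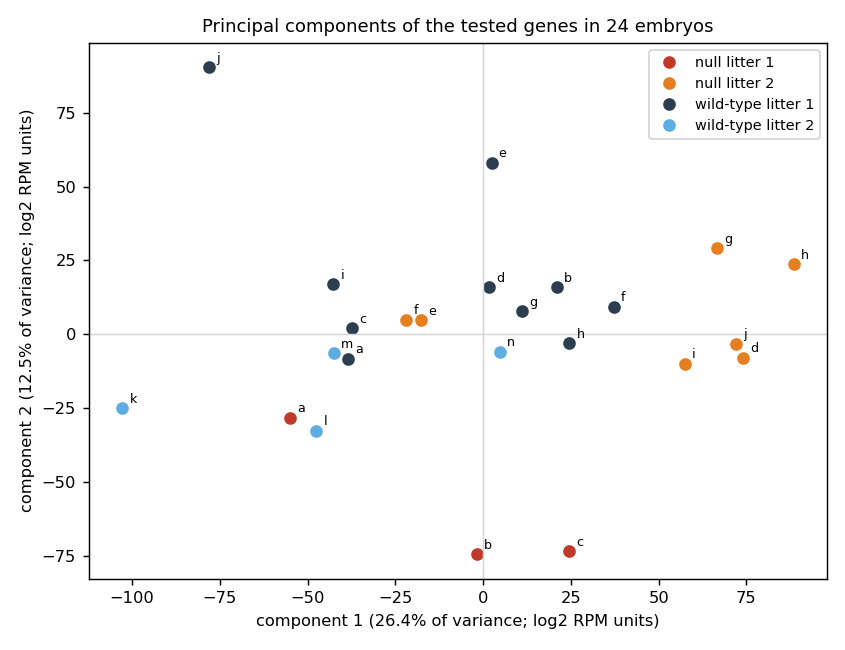
Principal components of the 24 embryos over the tested genes, with component 1 (26.4% of the variance) on the horizontal axis and component 2 (12.5%) on the vertical axis; each point is 1 embryo, coloured by litter and marked with its letter, with Dppa2/4-/- embryos named null. WT embryos k and j lie at -102.8 and -78.2 on component 1, and Dppa2/4-/- embryos d, g, h, i and j lie between 57.4 and 88.5.

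The targeted genes were nearly absent from the Dppa2/4-/- embryos. Dppa2 (chromosome 16, 48303908 to 48319723, forward strand) had 7, 3 and 5 reads in embryos a, b and c and 0 reads in the 7 embryos of litter 2, which after the floor gives levels of 1.86 to 2.06. In WT embryos, Dppa2 had between 184 and 2144 reads (median 605.5), at levels of 7.67 to 9.40 with a median of 8.39. Dppa4 (48283733 to 48294237, forward strand) had 4, 2 and 5 reads in embryos e, h and i and 0 reads in the other Dppa2/4-/- embryos, including all of litter 1. WT embryos had between 79 and 499 Dppa4 reads (median 242.5), at levels of 6.33 to 8.47 with a median of 7.12. Thus the few reads came from Dppa2 in the 3 embryos of litter 1 and from Dppa4 in 3 embryos of litter 2, and no Dppa2/4-/- embryo had reads of both genes. Both genes were lower than in WT embryos, Dppa2 by -6.57 ± 0.269 (SE, adjusted p = 1.3e-21) and Dppa4 by -5.25 ± 0.308 (adjusted p = 3.11e-16, limma with Benjamini-Hochberg adjustment), although genotype had been assigned from these transcripts. The Dppa2/4+/- littermates had mean levels of 6.42 for Dppa2 and 5.20 for Dppa4, between the other groups, and the 15 Dppa2/4+/- embryos of other litters had 6.47 and 5.50. Duxf3 (Dux), the 2C-like activator known as a Dppa2/4 target in embryonic stem cells, had 1 read in 1 of 10 Dppa2/4-/- embryos and at most 3 reads in 2 of 14 WT embryos. Every Duxf3 value of both groups lay under the floor, so its difference was not detectable at this depth.

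Beyond the targeted genes, few differences passed the threshold. Of 9629 genes, 37 (0.384%) were called at an adjusted p of 0.05, with 29 (0.301%) higher and 8 (0.0831%) lower in Dppa2/4-/- embryos, Dppa2 and Dppa4 included. Embryos of a litter may not be independent, and with litter as a random effect, or with litter means as replicates, only Dppa2 and Dppa4 were called, so every other call below rests on treating the embryos as independent. At an unadjusted p of 0.05, 2046 genes passed (1609 higher, 437 lower). Across the tested genes the median of the differences was 0.26 and 66.5% were positive, so differences of single genes and classes are read against this shift. Re-centring each embryo on its median gave a median difference of 0.13 and 44 calls, of which 28 were higher and 16 lower (63.6% higher, against 78.4%). Only Dppa2 and Dppa4 (0.0208% of genes) had no overlap between the 10 and the 14 embryos. For 2922 genes (30.3%) the 95% interval of the difference lay within -1 to 1 on the log2 scale, and for the others the data leave room for a larger difference. The mean levels of both Dppa2/4-/- litters lay above those of both WT litters for 2519 genes (26.2%) and below them for 813 (8.44%). All 37 called genes belonged to these sets, which follows largely from their having been called on the same embryos.

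**Figure D2:**
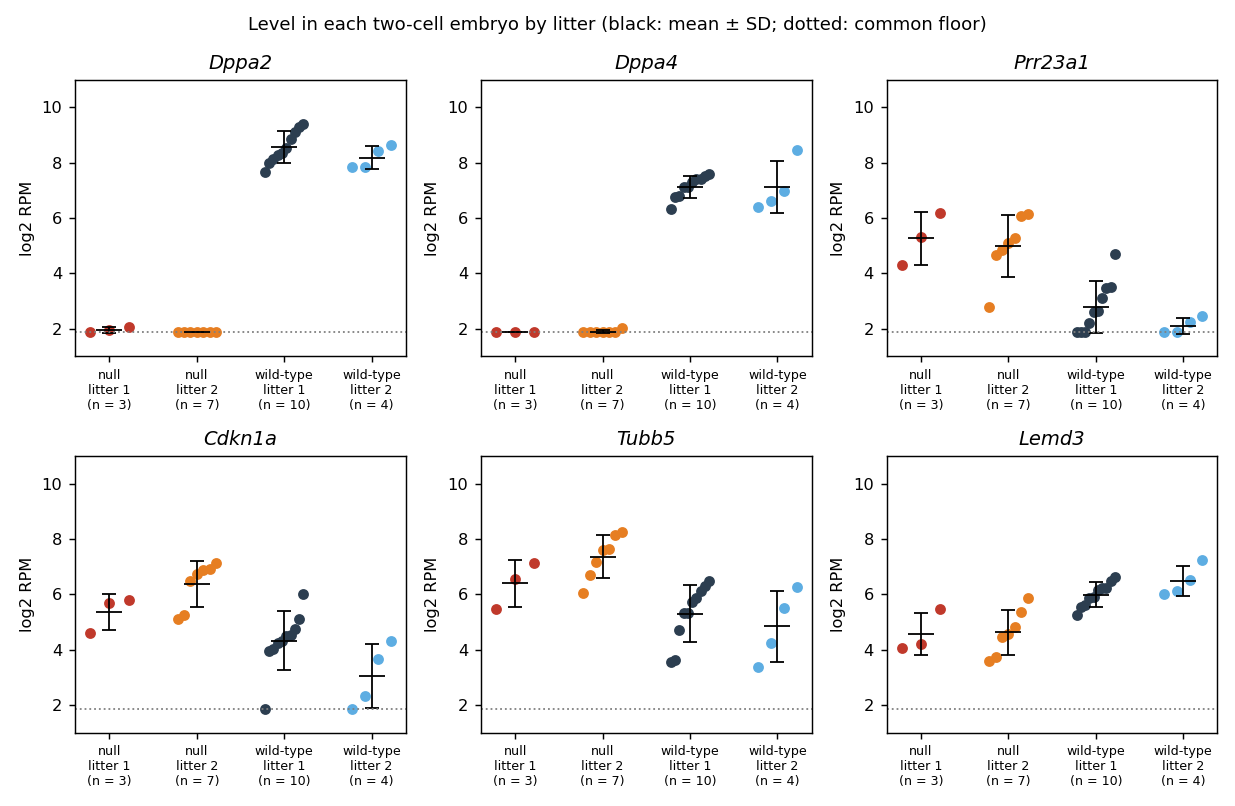
Levels (log2 RPM) of Dppa2, Dppa4, Prr23a1, Cdkn1a, Tubb5 and Lemd3 in each embryo, by litter, with the mean and SD of each litter as bars and the floor of 1.86 as a dotted line. For Dppa2 and Dppa4 the groups do not overlap, whereas for the other 4 genes the embryos of the 2 groups overlap.

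Prr23a1, which encodes a proline-rich protein, had the largest difference among the higher genes. It lies on chromosome 9 from 98842503 to 98843385 on the forward strand. Prr23a1 stood at 4.30, 5.30 and 6.19 in embryos a, b and c, and between 2.78 and 6.15 in the 7 embryos of litter 2. In WT embryos it ranged from 1.86 to 4.71 with a median of 2.34, so that 7 of 10 Dppa2/4-/- embryos lay above every WT embryo and embryo e lay well inside the WT range. The difference was 2.48 ± 0.426 (adjusted p = 0.00268), with a median of 32 reads in Dppa2/4-/- and 9 in WT embryos. Prr23a1 has close paralogs, and how reads shared with them were counted was not tested here, so its level is uncertain in that respect. Its Dppa2/4+/- littermates stood at 3.15, 2.66, 6.10, 6.75 and 3.80, of which 3 lay inside the WT range and 2 above its highest embryo.

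The 29 higher genes (0.301% of genes tested) included Tuba3b, Tubb5, Cotl1 and Kank2, which encode tubulins and actin-associated proteins and are set side by side here after the calls had been seen. Tuba3b, an alpha-tubulin known from testis, stood at 4.90, 7.23 and 6.71 in embryos a, b and c, with a median of 6.19 over the 10 Dppa2/4-/- embryos and 4.09 (range 1.86 to 6.01) in WT embryos. Its difference was 2.39 (adjusted p = 0.0252), and near-identical alpha-tubulin genes make its counts uncertain. Tubb5, the main beta-tubulin of dividing cells, ranged from 5.48 to 8.24 (median 7.16) against 3.37 to 6.48 (median 5.42) in WT embryos, with 8 of 10 embryos above every WT embryo and a difference of 1.90 (adjusted p = 0.0252). Cotl1, an actin-binding protein of the coactosin family, ranged from 2.48 to 5.46 against 1.86 to 3.06, and 9 of 10 Dppa2/4-/- embryos lay above every WT embryo. The difference of Cotl1 was 1.77 (adjusted p = 0.0252) at a median of 15.5 and 8 reads, close to the floor in WT embryos. Kank2, an adaptor of the actin cytoskeleton, was higher by 1.50 (adjusted p = 0.0429). In a list of 25 tubulin genes that was added after these calls had been seen, 19 were tested, the 2 higher were the calls that had prompted the list, none was lower, 15 had a positive difference and the median was 0.79, against 0.26 over all genes.

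Several of the 29 higher genes (0.301% of genes tested) are known from cell division or its inhibition, and are set side by side here after the calls had been seen. Cdkn1a (p21, an inhibitor of cyclin-dependent kinases and a p53 target) stood at 4.60, 5.81 and 5.69 in embryos a, b and c and had a median of 6.14 over all Dppa2/4-/- embryos, against 4.27 (range 1.86 to 6.01) in WT embryos. Its difference was 2.10 ± 0.438 (adjusted p = 0.0268), and 5 of 10 embryos lay above every WT embryo. Cdkn2d (p19, an inhibitor of Cdk4 and Cdk6) was higher by 1.85 (adjusted p = 0.0486). Aurkb, the mitotic kinase of the chromosomal passenger complex, ranged from 5.61 to 7.32 (median 6.51) against 1.86 to 6.11 (median 5.11), with 9 of 10 embryos above every WT embryo. The difference of Aurkb was 1.92 (adjusted p = 0.0319). Ube2s, a ubiquitin-conjugating enzyme of the anaphase-promoting complex, was higher by 1.74 (adjusted p = 0.0429), Cdca3, a regulator of mitotic entry, by 1.28 (adjusted p = 0.0486), and Pttg1, the securin of the separase pathway, by 1.05 (adjusted p = 0.0436). Siva1, a pro-apoptotic protein, was higher by 1.35 (adjusted p = 0.0339). In the cell-cycle list, 44 of 50 genes were tested, 2 were higher (Aurkb and Pttg1, against 0.301% of all genes), none was lower, and 36 had a positive difference with a median of 0.58. Both Dppa2/4-/- litters had positive medians for this list, 0.51 in litter 1 and 0.70 in litter 2, and the 2 members with the highest RPM differed little from WT, Ccna2 with -0.004 (95% interval -0.35 to 0.34) and Ccnb1 with 0.30 (-0.12 to 0.73). The p53 pathway list had 23 genes tested with Cdkn1a as its only call, 15 with a positive difference and a median of 0.34, and Mdm4, its member with the highest RPM, differed by -0.03 (95% interval -0.45 to 0.40).

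The remaining higher genes had varied roles. Lmo1, a LIM-domain transcriptional cofactor, ranged from 4.87 to 8.57 (median 6.69) against 1.86 to 5.99 (median 4.94) and was higher by 2.07 (adjusted p = 0.0319). B9d1 and Tmem216, components of the ciliary transition zone, were higher by 2.02 (adjusted p = 0.0429) and 1.99 (adjusted p = 0.0344). Gm2a, a lysosomal activator of ganglioside breakdown, was higher by 2.00, Qsox1, a sulfhydryl oxidase, by 1.77 and Atox1, a copper chaperone, by 1.74 (each adjusted p = 0.0486). Higd2a, an assembly factor of the respiratory chain, was higher by 1.82 and Cnnm4, a magnesium transporter, by 1.72. Ptov1 was higher by 1.72 (adjusted p = 0.0344), Wfdc3 by 1.54 and Pnkd by 1.14. The other 6 were genes known by clone or model names, namely Gm10252 (1.99), 2610318N02Rik (1.95), Gm3550 (1.70), 4930444A19Rik (1.54), Gm43552 (1.43) and Gm49493 (1.34). Lmo1 and Ptov1 were named in the study from these embryos and Prr23a1, Tuba3b, B9d1, Cdkn1a and Gm3550 were known from earlier results on them, so these calls are not independent evidence of their direction. The median WT level lay at the floor for Pnkd, Gm49493, Kank2, Wfdc3, Gm3550 and Ptov1, and the size of their differences depends on where the floor lies. They lay above the floor in 9 or 10 Dppa2/4-/- embryos but in 4 to 6 WT embryos. Cotl1, B9d1, Gm43552, 4930444A19Rik, Prr23a1 and 2610318N02Rik did so in 9 or 10 and in 7 to 9. All of these passed the filter of 10 embryos only with the group in which they were higher, so the filter favoured calls in that direction.

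The 6 other lower genes were abundant in WT embryos and included RNA-binding and nuclear proteins. Lemd3 (MAN1), an inner nuclear membrane protein that binds Smads, ranged from 3.58 to 5.87 (median 4.51) in Dppa2/4-/- and from 5.25 to 7.26 (median 6.14) in WT embryos. In 7 of 10 embryos Lemd3 lay under every WT embryo, with a difference of -1.52 ± 0.312 (adjusted p = 0.0252). The Dppa2/4+/- littermates had a mean Lemd3 level of 4.41, against 4.61 in Dppa2/4-/- and 6.13 in WT embryos. Snrpe, a Sm core protein of spliceosomal particles, ranged from 8.04 to 10.4 against 9.35 to 11.8 and differed by -1.23 (adjusted p = 0.0324). Hnrnpd, which binds AU-rich elements of mRNA, ranged from 5.15 to 6.74 against 6.33 to 8.22 and differed by -1.23 (adjusted p = 0.0313). Hnrnpk, a related RNA-binding protein, had the smallest difference of all called genes, -0.72 (adjusted p = 0.0486), at levels of 8.11 to 9.09 against 8.63 to 9.91. Sirt1, an NAD-dependent deacetylase, differed by -1.20 (adjusted p = 0.0486) and Rtn4, a shaping protein of the endoplasmic reticulum, by -1.17 (adjusted p = 0.0429). A list of 20 hnRNP genes, added after Hnrnpd and Hnrnpk had been seen, had these 2 calls that prompted it (0.0831% of all tested genes were lower), 8 members with a positive difference and a median of -0.21, against 0.26 over all genes, but with -0.54 in litter 1 and 0.045 in litter 2. In the spliceosome list, 56 genes were tested, Snrpe was the only call (against 0.384% of all genes) and the median was 0.28, close to the 0.26 over all genes, with Snrpa at 1.42 (adjusted p = 0.0805).

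**Figure D3:**
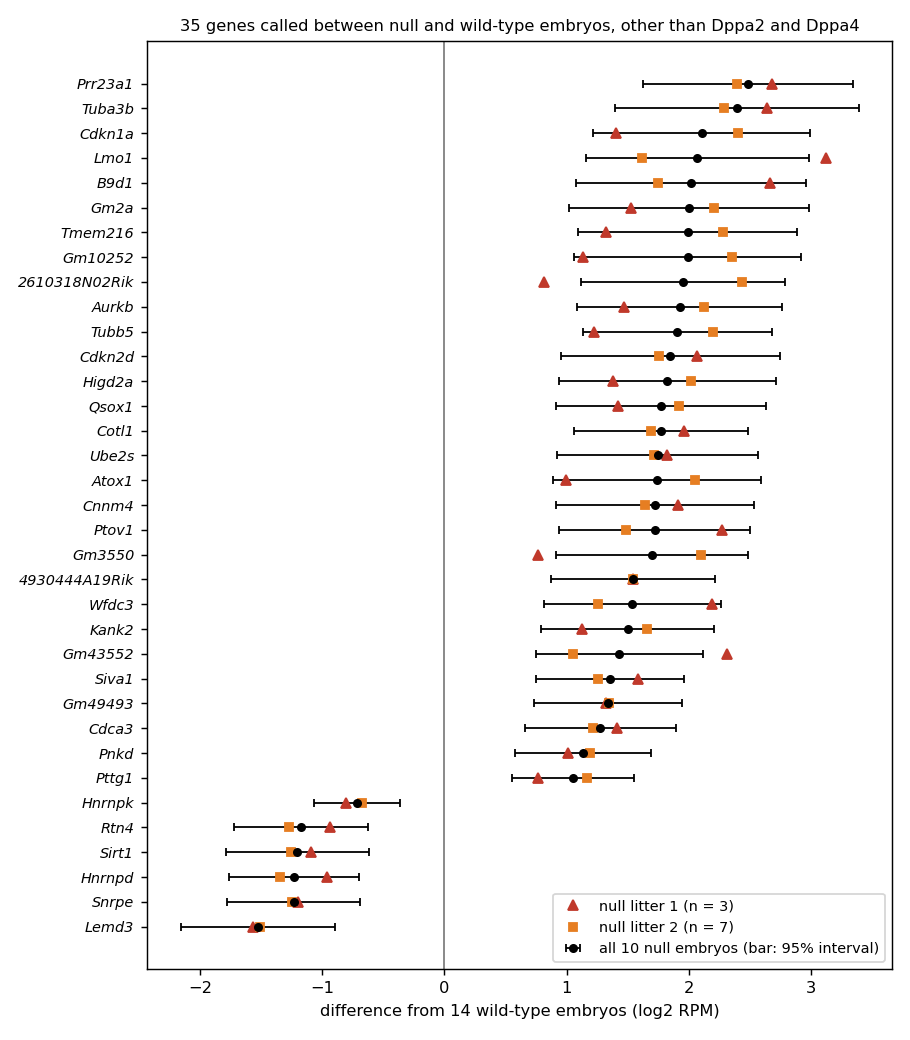
Differences from WT embryos (log2 RPM) of the 35 called genes other than Dppa2 and Dppa4; black points with bars give the difference of all 10 Dppa2/4-/- embryos with its 95% interval, triangles that of litter 1 and squares that of litter 2. Both litters lie on the same side of 0 for each gene, and the genes had been called on these same embryos.

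Several genes lay just outside the threshold. Pou5f1 (Oct4), the pluripotency factor, had means of 6.59 and 4.80 and a difference of 1.79 (95% interval 0.88 to 2.70, adjusted p = 0.0594). Fbxw4, an F-box protein, differed by 1.86 (adjusted p = 0.0514) and Gm17018 by 1.76 (adjusted p = 0.0523), and since these genes adjoin on chromosome 19 and the counting ignored strand, their reads may not be separate. Borcs8 (1.74), Cnpy3 (1.71), Ckb (1.58) and Gnb2 (1.34) each had an adjusted p of 0.0514. Gm43592 differed by 1.47 (adjusted p = 0.0509). Among genes with negative differences, Usmg5, a subunit of ATP synthase, stood at -1.18 (adjusted p = 0.0514) and Snx6, a sorting nexin, at -0.88 (adjusted p = 0.0523). BC002059 (-1.76), Peli1 (-1.61), Ulk4 (-1.12), Snrpd1 (-0.92), Plekhf2 (-0.82) and Dnajb9 (-0.81) each had an adjusted p of 0.0608. Serinc1, a membrane protein named in the study, had means of 5.45 and 6.53 and a difference of -1.08 (adjusted p = 0.0754).

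The number of calls depended on which embryos entered the test. Leaving out Dppa2/4-/- embryo a gave 640 calls, and leaving out embryos e and f gave 112 and 173. These 3 embryos are those of the group with negative scores on component 1 apart from embryo b. Without Dppa2/4-/- embryos b, c, d, g, h, i and j, each in turn, the count was 10, 8, 6, 21, 7, 4 and 5. On the WT side, the count rose to 88 and 75 without embryos h and k. It was 14, 10, 18, 18, 9, 9, 17 and 14 without WT embryos a, c, d, e, i, j, l and m. The 4 other WT embryos moved the count by less than 1.5 times. Without WT embryos j and k together, 39 genes were called, of which 19 were higher and 20 lower, so that the excess of higher calls was not seen. Dppa2, Dppa4 and Prr23a1 were called in all 24 omissions, with Prr23a1 between 2.36 and 2.73, and the next most stable were Cotl1 (22 of 24), Lemd3 (21), Cdkn1a (20), Tubb5 (20) and Tuba3b (19). When litter entered as a random effect, Prr23a1 had a difference of 2.57 (adjusted p = 0.219). Hnrnpk, Pnkd and Cdkn2d were called in the fewest omissions (7 of 24 each). All 37 called genes kept their sign under every alternative that gave them a value. These alternatives reuse the embryos on which the genes were called, so a change of sign was unlikely from the start.

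**Figure D4:**
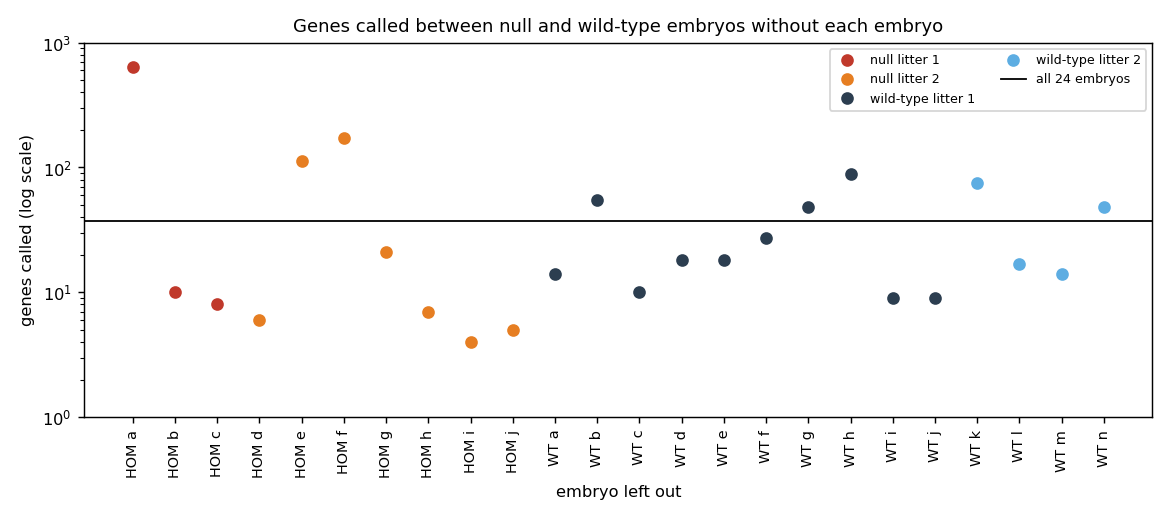
Number of genes called between Dppa2/4-/- and WT embryos (log axis) after leaving out each embryo, by group and litter. The count ranges from 4 without Dppa2/4-/- embryo i to 640 without Dppa2/4-/- embryo a, against 37 with all embryos.

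The Dppa2/4-/- litters were compared with each other in a model with each as its own group and all WT embryos as 1 group. Between litter 1 (3 embryos) and litter 2 (7 embryos), 215 genes (2.23%) were called, against 103 (1.07%) between the WT litters and 95 between the mean of both Dppa2/4-/- litters and the mean of both WT litters. The counts of 103 and 95 come from models of the 4 litters, not from the model that gave 215. Without embryo a, 71 were called between the Dppa2/4-/- litters, while the count between all Dppa2/4-/- and WT embryos was 640. Set against all WT embryos, 127 genes (1.32%) were called for litter 1 and 406 (4.22%) for litter 2. None of the 37 genes called between Dppa2/4-/- and WT embryos was called between the Dppa2/4-/- litters, against 2.23% of all genes. Those 37 calls favour genes with little spread among the same embryos, so this is no separate evidence that the litters agree. Pearson correlations had a median of 0.831 within litter 1 (3 pairs), 0.808 within litter 2 (21 pairs) and 0.727 across them (21 pairs). Litter 1 had totals of 785529 to 2438144 reads and litter 2 of 418558 to 3048642, and the part of depth in these differences was not tested beyond the thinned reads, which gave 106 calls between the litters.

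Genes higher in litter 1 included oocyte-deposited and 2C-like transcripts (genes named between the litters were chosen after their values had been seen). Btg4, an adaptor of the deadenylase complex that clears maternal mRNA, stood at 9.76, 10.3 and 9.91 in embryos a, b and c and between 6.79 and 8.41 (median 7.96) in litter 2, with WT embryos between 6.51 and 9.45. The litters did not overlap, and the difference was 2.18 ± 0.436 (adjusted p = 0.00613). Wee2, the oocyte kinase that holds meiotic arrest, stood at 8.40, 8.39 and 8.21 against 4.99 to 6.70 in litter 2 and differed by 2.32 (adjusted p = 0.0137). Oosp1, an oocyte-secreted protein, Omt2b, an oocyte transcript, and Tcl1, an Akt coactivator stored in the oocyte, were higher in litter 1 by 1.83, 1.70 and 2.27. Zar1, a factor that binds stored mRNA, stood at 2.71, 4.05 and 5.78 against 1.86 to 3.58 and differed by 1.87 (adjusted p = 0.0469), with the litters overlapping. Tcstv1, a 2C-like transcript, stood at 4.55, 5.60 and 5.29 against 1.86 to 3.40 in litter 2 and 1.86 to 4.85 in WT embryos, and differed by 2.92 (adjusted p = 0.0129). Usp17lc, a deubiquitinase gene of the 2C-like set with many close copies, stood at 6.21, 6.74 and 6.41 against 1.86 to 4.87 and differed by 3.14 (adjusted p = 0.0315).

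Of the 215 genes called between the litters, 95 were higher and 120 lower in litter 1, and this balance depended on scaling, floor, filter and model. It was 107 higher and 71 lower with embryos re-centred on their median, 133 and 109 with genes above the floor in at least 5 embryos, 195 and 109 with genes above it in at least 1, and 200 and 112 with the filter on the mean. The balance went the other way without a floor (13 higher and 63 lower), with voom (6 and 30) and with log2(RPM + 1) (25 and 82). Between the litters, 6 of 79 ribosomal protein genes, 8 of 35 proteasome genes and 2 of 56 spliceosome genes were called, against 2.23% of all tested genes, all of them lower in litter 1 except 1 proteasome gene. Rpl14 of the large ribosomal subunit stood at 3.47, 1.86 and 3.73 in embryos a, b and c, against 4.82 to 7.22 in litter 2 and 3.67 to 6.42 in WT embryos, and differed by -3.31 ± 0.620 (adjusted p = 0.00409). Rps27 of the small subunit stood at 3.71, 4.26 and 4.64 against 5.09 to 7.47 and differed by -2.60 (adjusted p = 0.0105). Psmb4, a subunit of the proteasome core, stood at 4.76, 4.05 and 5.78 against 6.46 to 8.33 and differed by -2.61 (adjusted p = 0.00613), and Psma6, another core subunit, differed by -2.38 (adjusted p = 0.00899). Psme4, an activator of the proteasome, went the other way with 1.28 (adjusted p = 0.0477). Srsf6, a splicing factor, stood at 3.80, 4.26 and 4.06 against 5.96 to 6.93 and differed by -2.28 (adjusted p = 0.00613), and in litter 2 its mean of 6.32 equalled that of WT embryos to 2 decimals. Eif3m, a translation initiation factor, differed by -1.90 and Cdk4, the kinase of the G1 phase, by -2.46.

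The calls between the litters also moved with single embryos, with the controls included. Between the Dppa2/4-/- litters, the count was 71, 16 and 104 without embryos a, b and c, and 131, 385, 436, 78, 73, 138 and 123 without embryos d to j in turn, and 418 without WT embryo k. This count was lowest without embryo b and highest without embryo f. For litter 1 against WT embryos it was 271, 5 and 12 without embryos a, b and c and 281 without WT embryo k. Without embryos d to j in turn, the count for litter 2 against WT embryos was 12, 1338, 1319, 54, 14, 69 and 9. The count thus rose without embryos e and f and fell without each of the other 5 embryos of the litter. It was 108, 711, 107, 874, 770, 154, 233, 175 and 157 without WT embryos a, b, c, f, h, i, j, l and m. The 103 calls between the WT litters became 1 without embryo k, 21 to 57 without embryos b, d, e, g, h and i, 68 without l, 197 without m and 385 without n.

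**Figure D5:**
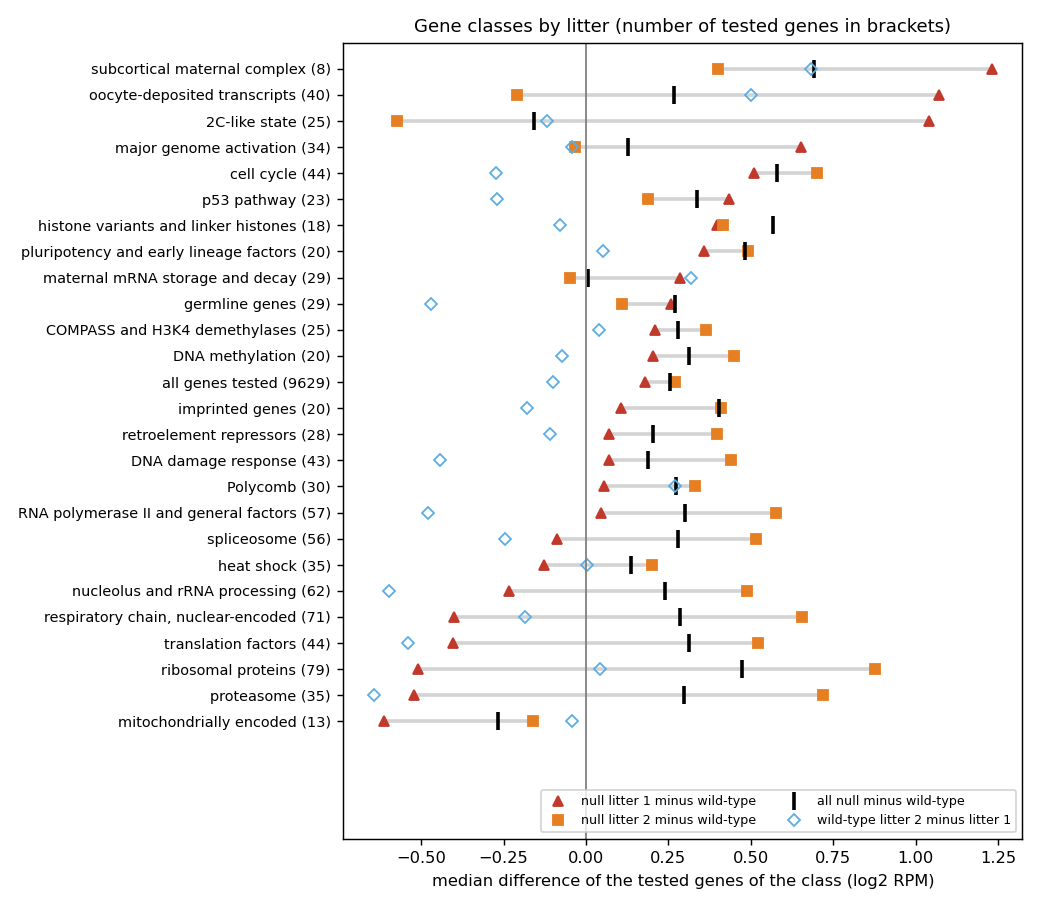
Median difference (log2 RPM) over the tested genes of each class; triangles give Dppa2/4-/- litter 1 minus WT, squares litter 2 minus WT, black bars all Dppa2/4-/- embryos minus WT, and open diamonds WT litter 2 minus WT litter 1. Ribosomal protein genes lie at -0.51 in litter 1 and 0.88 in litter 2, and 2C-like genes at 1.04 and -0.57.

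Genes of the genome activation programme had no calls, which is near the 0.384% of all tested genes. Of 43 genes of the major wave of genome activation, 34 were tested, none was called, 19 had a positive difference and the median was 0.13, with 3 nominal passes. The litter medians of this list were 0.65 and -0.032, and 3 of the 34 genes were called between the litters, against 2.23% of all genes. The phosphate transporter Slc34a2, 1 of the 2 genes of the list with the highest RPM (not scaled to length), stood at 8.83 ± 0.306 (SD, n = 10) in Dppa2/4-/- and 8.76 ± 0.431 (SD, n = 14) in WT embryos, a difference of 0.08 (95% interval -0.31 to 0.47). Usp16, a histone H2A deubiquitinase, differed by -0.25 (-0.59 to 0.09) and Nelfa, a subunit of the elongation factor NELF, by 1.10 (adjusted p = 0.0805). For 11 of these 34 genes (32.4%) the interval lay within -1 to 1, near the 30.3% of all genes. Of 37 genes of the 2C-like state, 25 were tested, none was called and 10 had a positive difference, with a median of -0.16. The 2 litters stood apart in this list, with medians of 1.04 in litter 1 and -0.57 in litter 2. The mean level over the list was 5.74, 5.86 and 5.20 in embryos a, b and c, 3.44 to 4.71 in litter 2 and 3.79 to 5.27 in WT embryos, so that embryos a and b lay above every WT embryo, embryo c lay inside their range, and 4 of the 25 genes were called between the litters, against 2.23% of all genes. Sp110, with the highest RPM of the list, differed by 0.66 (adjusted p = 0.143) and Pramel7 by -0.53 (adjusted p = 0.181).

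Lists of stored maternal transcripts had no calls between Dppa2/4-/- and WT embryos, against 0.384% of all tested genes, and lists of this size would hold few calls or none at that share. Of 47 oocyte-deposited transcripts, 40 were tested, none was called, and the median was 0.27, with 1.07 in litter 1 and -0.21 in litter 2 and 6 of the 40 called between the litters, against 2.23% of all genes. Zp3, a zona pellucida protein, differed by 1.39 (adjusted p = 0.0805) and the RNA-binding Elavl2 by -0.74 (adjusted p = 0.0776). The subcortical maternal complex, which supports the first cleavages, had 8 genes tested, none called, 6 with a positive difference and medians of 1.23 and 0.40 in the 2 litters, with none called between them. Padi6 of this complex differed by 1.24 (adjusted p = 0.0892). Of 38 factors that store or degrade maternal mRNA, 29 were tested, none was called and the median was 0.01, with 0.29 in litter 1 and -0.048 in litter 2 and 4 of the 29 (Btg4, Cnot7, Zar1 and Pan3) called between the litters. Pum2, a translational repressor, differed by -0.69 (adjusted p = 0.0776).

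Chromatin regulators related to the known roles of Dppa2 and Dppa4 had no calls, which at 0.384% of all tested genes is near what lists of this size would show. Among 20 tested genes of DNA methylation, 15 had a positive difference with a median of 0.31, and Dppa3 (Stella), which protects maternal chromatin from demethylation, stood at 10.5 and 10.1 with a difference of 0.39 (95% interval -0.03 to 0.82). Gadd45b, a factor linked to DNA demethylation, differed by 1.24 (adjusted p = 0.0608). Among 25 genes of COMPASS complexes and H3K4 demethylases the median was 0.28, with Kmt2d, an H3K4 methyltransferase, at 1.32 (adjusted p = 0.0658). Among 30 Polycomb genes the median was 0.27, with Suz12 of PRC2 at -0.63 (adjusted p = 0.0771), Bmi1 at -0.56 (adjusted p = 0.136) and Pcgf1 at 1.28 (adjusted p = 0.0774). The 28 repressors of retroelements had a median of 0.20, and for 14 of them the interval lay within -1 to 1. In the list of 41 germline genes, 29 were tested and Tuba3b was the only call, with a median of 0.27. Of 37 bivalent developmental genes only 2 passed the filter, Gata4 with 1.07 (adjusted p = 0.121) and Mixl1 with 0.35 (adjusted p = 0.668), so this class was mostly not detectable at this depth. Pluripotency and early lineage factors had 20 genes tested, 18 with a positive difference and a median of 0.48, with Klf17, a factor abundant in two-cell embryos, at 0.45 (adjusted p = 0.340).

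Genes of general growth had no calls among 79 ribosomal protein genes, 62 nucleolar genes, 44 translation factors, 35 proteasome genes, 57 genes of RNA polymerase II and its general factors and 71 nuclear genes of the respiratory chain, which is again near the 0.384% of all tested genes. The ribosomal protein genes had a median of 0.47, with -0.51 in litter 1 and 0.88 in litter 2. Their mean level was 4.79, 5.71 and 5.49 in embryos a, b and c, 5.53 and 5.57 in embryos e and f, and 6.72 to 7.58 in embryos d, g, h, i and j, against 4.98 to 6.86 in WT embryos. Embryos e and f of litter 2 thus lay with litter 1 for ribosomal genes, while for 2C-like genes they stood at 4.62 and 4.34, within the range of their own litter. Rpl15 differed by 1.20 (adjusted p = 0.0754) and Rpl39 by -1.37 (adjusted p = 0.0750). The proteasome list had medians of -0.52 and 0.72 in the 2 litters, translation factors -0.40 and 0.52, nuclear genes of the respiratory chain -0.40 and 0.65 and nucleolar genes -0.24 and 0.49. The abundant initiation factor Eif5 differed by -0.80 (adjusted p = 0.0640), Npm1 of the nucleolus by -0.53 (adjusted p = 0.134) and Cox8a of the respiratory chain by 1.33 (adjusted p = 0.0638). RNA polymerase II genes had a median of 0.30, with the subunit Polr2c at 1.14 (adjusted p = 0.0658) and Taf5 at -1.02 (adjusted p = 0.0805). Genes encoded by the mitochondrial genome had 13 members tested, 3 with a positive difference and a median of -0.27, and the abundant mt-Co1 of cytochrome oxidase differed by -0.46 (adjusted p = 0.207). Heat shock genes (35 tested, median 0.14), DNA damage genes (43, median 0.19), histone variants (18, median 0.57) and imprinted genes (20, median 0.40) had no calls.

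Littermates that kept a paternal Dppa2/4 allele allowed a comparison within litters. Between the 10 Dppa2/4-/- embryos and the 5 Dppa2/4+/- embryos of the same 2 litters, with the litter as a block, limma called only Dppa2 and Dppa4 (0.0208% of genes), while 494 genes passed an unadjusted p of 0.05. These 2 calls rest on the transcripts by which the genotype was assigned. Only 1 of the 5 littermates came from litter 2, so that the comparison rests mostly on litter 1. Their mean levels were 4.49 for Prr23a1, 5.72 for Tuba3b, 4.20 for Cdkn1a, 5.46 for Tubb5, 5.04 for Aurkb and 3.30 for Cotl1. The corresponding means of Dppa2/4-/- embryos were 5.07, 6.03, 6.07, 7.07, 6.51 and 4.10, and the fit with the litter as a block, which weighs the litters and is not the difference of these means, gave 0.80 for Prr23a1 (adjusted p = 0.801) and 1.59 for Cdkn1a (adjusted p = 0.784). For Hnrnpk the littermates had a mean of 8.56, against 8.63 in Dppa2/4-/- and 9.34 in WT embryos.

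Genes around the deletion did not pass the threshold, which 0.384% of all tested genes passed, and so few genes would rarely hold a call at that share. Within 2 Mb of Dppa2 and Dppa4, 6 of 16 genes were tested, and their differences ran from -0.77 for Dzip3 (adjusted p = 0.296) to 0.46 for Bbx (adjusted p = 0.536). Their median was -0.25, which turned to 0.14 with voom on the recovered reads.

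Markers of other cells were checked, since two-cell embryos lie in the oviduct. Ovgp1, the glycoprotein secreted by the oviduct, had 1 read in 1 of 10 Dppa2/4-/- embryos. In WT embryos, Ovgp1 had 1597 reads (1500 RPM) in k, 630 (211 RPM) in l, 322 (147 RPM) in m, 41 (48.4 RPM) in n, 84 (61.4 RPM) in j and 48 (16.1 RPM) in a, and 0 to 13 in the others. The 7 oviduct markers summed to 59.1 to 174 RPM in Dppa2/4-/- embryos and 66.1 to 1667 RPM in WT embryos, with 4 at 0 in all Dppa2/4-/- embryos. In Dppa2/4-/- embryos the sum came almost wholly from Epcam, with a median of 110 RPM, against 87.7 RPM in WT embryos. Thus all 4 embryos of WT litter 2 carried Ovgp1, and the part of Ovgp1 in the comparison was not tested. Without WT litter 2, 61 genes were called between Dppa2/4-/- and WT embryos (29 higher, 32 lower). The 16 cumulus markers summed to 21.3 to 116 RPM and 11.7 to 79.1 RPM, mostly from Amhr2, with 8 of 16 at 0 in all Dppa2/4-/- and 7 of 16 in all WT embryos, Fshr and Foxl2 among them. Blood markers summed to at most 6.10 and 6.96 RPM.

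The promoters of the called genes were described by their CG dinucleotides, since Dppa2 and Dppa4 are known for CpG-rich promoters. In the 250 bases before the RefSeq start, 22 of 29 higher genes with an entry had a median of 16.5 CG (range 2 to 34), close to the median of 17 over 7329 tested genes with an entry. Those with at least 10 CG made up 72.7% of the higher genes, 77.2% of the tested genes and 38.2% of all 27018 promoters. The 6 of 8 lower genes with an entry had 12 to 39 CG, with a median of 33. Dppa2 and Dppa4 had no entry. These counts are a description of the windows and carry no test.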

How the data were processed

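Single two-cell embryos were lysed, and polyadenylated RNA was captured on oligo-dT beads and amplified by the Smart-seq2 protocol before tagmentation with Nextera XT. The authors trimmed the paired reads with Trim Galore 0.6.5 and cutadapt 2.3, mapped them to GRCm38 with HISAT2 2.1.0, discarded those mapped with a MAPQ under 20 and quantified 35269 mRNA probes in SeqMonk, ignoring strand. The table was deposited as log2 RPM, in which the authors' software gives a gene without reads the value of 0.9 read. Whole reads were recovered from these steps (99.9992% of values within 0.05 read), and read numbers speak to counting error only, because PCR copies of a molecule are counted separately here. The number of column pairs with the same values throughout was 0.

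Values under the common floor of 1.86 were raised to it. The floor equals 1.52 reads in the shallowest and 11.5 reads in the deepest of the 24 embryos. Genes above the floor in at least 10 of the 24 embryos (9629) were tested with limma 3.58.1 (lmFit and eBayes with trend, R 4.3.3) with Benjamini-Hochberg adjustment at 0.05, and the study names no test for these data in its text. The embryos of each numbered mating in the labels were taken as 1 litter. Dppa2/4-/- litters were compared with each other and with WT embryos in a model with all WT embryos as 1 group. WT litters were compared in a model of the 4 litters, and littermates with litter as a block. p-values treat embryos as independent and measure the spread between embryos. The script was tested on simulated data. Python 3.11.15 with pandas 2.3.3, numpy 2.4.6 and matplotlib 3.10.9 was used for descriptions and plots.

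Members and gene lists were chosen with earlier results of these data known. Genes named were Dppa2, Dppa4 and Duxf3, the called genes up to the 20 largest differences, the 8 highest and 8 lowest statistics among genes not called, in each list the 2 highest levels and the highest and lowest statistic, genes whose groups do not overlap, genes named in the study or in earlier results, and neighbours within 2 Mb. The remaining called genes and the genes that differed between the Dppa2/4-/- litters were named after their values had been seen. Alternatives covered the floor, the genes kept, scaling, depth, weights, litter and the embryos left out.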

Additional observations from a re-analysis of the deposited data

Results flagged for a closer look

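Of 128 tests for a single embryo far from the others of its group, 8 were positive, near the share of about 1 in 20 that chance gives. Among Dppa2/4-/- embryos, Dppa2 stood at 2.06 in embryo c and Dppa4 at 2.02 in embryo i, where the median of each gene was 1.86. These 2 follow from the floor, at which most of the group was held, and embryo a had more Dppa2 reads (7) than embryo c (5). Cnnm4 stood at 4.57 in embryo f against a median of 5.96, Serinc1 at 3.68 in embryo j against 5.49, and Gata4 at 4.76 in embryo a against 6.60. Slc34a2 stood at 8.09 in embryo e against 8.86. BC002059 stood at 4.60 in embryo b against 2.01. The mean level of the 6 genes within 2 Mb of Dppa2 and Dppa4 was 5.73 in embryo a against 4.23.

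The difference from WT embryos differed between the Dppa2/4-/- litters for 215 genes (limma, adjusted over all genes). Litter 1 minus litter 2 was 2.18 for Btg4, 2.32 for Wee2, 1.87 for Zar1, 1.83 for Oosp1, 1.70 for Omt2b, 2.27 for Tcl1, 2.92 for Tcstv1, 3.14 for Usp17lc and 1.28 for Psme4. It was -3.31 for Rpl14, -2.60 for Rps27, -2.61 for Psmb4, -2.38 for Psma6, -1.90 for Eif3m, -2.28 for Srsf6 and -2.46 for Cdk4.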

How the results depend on the processing

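Between Dppa2/4-/- and WT embryos, 37 genes were called. Without a floor the count was 5, with a floor 1 log2 unit higher 58, with genes above the floor in at least 5 or 1 embryos 17 and 14, with a mean deposited value of at least 0 17, with reads thinned to a common depth 17, with voom 5, with log2(RPM + 1) 5, without embryos under 500000 reads 5, with all 44 embryos in the model 9, with array weights 428, and as a mean of litters against a mean of litters 95. With litter as a random effect or litter means as replicates it was 2. Leaving out single embryos or litters gave 4 to 640. The cause of these changes was not tested. A replicate block on mating number left 8 calls. The same numbers in different matings name different animals, and the differences between matings correlated at -0.40 across the groups, so the numbers do not pair the embryos. For littermates, the fit with no replicate block called 2, as with the block, and omissions gave 0 (without litter 2) to 3.

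For litter 1 against WT embryos, the count of 127 became 45 without a floor, 204, 327 and 305 under the 3 other filters (5 embryos, mean of 0, 1 embryo), 27 with voom, 46 with log2(RPM + 1), 277 without WT embryos j and k, and 4 to 452 in omissions. For litter 2 it was 3 without a floor, 735 with the higher floor, 94 and 88 under the filters on the mean and on 1 embryo, 6 with voom, 5 without embryos under 500000 reads, 37 with log2(RPM + 1) and 9 to 1338 in omissions, against 406. Between the Dppa2/4-/- litters it was 76 without a floor, 106 thinned, 36 with voom, 26 without embryos under 500000 reads, 107 with log2(RPM + 1), 592 without WT j and k and 16 to 437 in omissions, against 215. Between the WT litters it was 44, 155 with the filter on the mean, 60 thinned, 62 without embryos under 500000 reads, 60 with log2(RPM + 1), 1 without j and k and 1 to 385 in omissions, against 103.

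Medians moved by more than the spread between embryos for the genes known from earlier results (2.85 without a floor) and, when embryos or litters were left out, within these ranges: genome activation -0.032 to 0.65, 2C-like -0.57 to 1.04, oocyte-deposited -0.27 to 1.07, retroelement repressors -0.042 to 0.46, germline 0.11 to 0.64, translation factors -0.40 to 0.61, RNA polymerase II 0.045 to 0.83, heat shock -0.13 to 0.26, hnRNPs -0.54 to 0.045, and markers of two-cell embryos -0.73 to 1.34, of oocytes -0.10 to 1.33 and of later embryos -0.53 to 0.72. No called gene changed sign, although the alternatives reuse the embryos on which the genes were called. Among genes not called, Slc34a2 stood at -0.086 re-centred, -0.059 with voom and -0.004 without WT j and k, Mixl1 at -0.68 to 0.83 and Ccnb1 at -0.090 to 0.70 in omissions, Ccna2 at -0.23 to 0.091, and Mdm4 at 0.001 with litter as a random effect, 0.064 for litter means or their contrast, 0.029 with the block, 0.11 without embryos under 500000 reads and -0.37 to 0.65 in omissions.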
